A study of Mus musculus with 20 samples.

Results

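The response to isoproterenol in hearts of Ogfod1-knockout mice was described from 10 of the 20 libraries of the series, the 5 labelled as knockout with isoproterenol and the 5 labelled as knockout with vehicle, and across all 14878 genes that passed a filter on low counts. The mice were C57BL/6N, aged 3 to 5 months, of the genotype labelled OGFOD1-KO (KO), and were kept on NIH-31 diet. Vehicle was phosphate-buffered saline with sodium ascorbate, and the treated mice received isoproterenol in that solution, both from an osmotic minipump for 2 weeks. Wild-type (WT) mice of the same strain and age formed the other 2 groups, also of 5 libraries each, and were used here only where stated. RNA came from an aliquot of powdered whole heart and was made into stranded total RNA libraries, which keep mitochondrial and non-polyadenylated transcripts. The isoproterenol dose, the part of Ogfod1 that was deleted and whether the deletion was body-wide are not given in the sources used here. Whether the libraries of a group are separate mice is not stated in the labels. The p-values below therefore rest on the spread between libraries, which may be technical.

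Isoproterenol is an agonist of beta-adrenergic receptors, which couple through Gs to adenylyl cyclase, cAMP and protein kinase A and raise the rate and force of the heartbeat. Sustained infusion in mice is a standard model of cardiac hypertrophy, in which fibroblasts deposit matrix and myocytes change their contractile and metabolic genes. OGFOD1 is a prolyl hydroxylase whose known substrate is RPS23, a ribosomal protein and part of the decoding centre of the small ribosomal subunit.

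The 10 KO libraries held 14974306 to 36398437 counts, of which 55.6% to 61.9% came from the mitochondrial genome, leaving 6.36 to 15.4 M counts for all other genes. The mitochondrial ribosomal RNA mt-Rnr2 alone held 42.5% to 46.4% of all counts in these libraries. Levels are given as CPM, counts scaled to library size, after scaling of the libraries by the trimmed mean of M values, and changes as log2 fold changes of isoproterenol over vehicle. The targeted gene, Ogfod1, measured 3.19 ± 0.582 CPM with vehicle and 3.18 ± 0.681 CPM with isoproterenol (SD, n = 5 each), against 19.2 ± 1.44 CPM and 20.2 ± 1.35 CPM in WT. All 14 cardiomyocyte markers were tested in the KO libraries, and their summed level was 54237 to 76181 CPM. Of the 15 lymphocyte markers 3 passed the filter, and of the 12 skeletal muscle markers 4 did.

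KO isoproterenol replicate 5 stood apart from the other 4 libraries of its group. It lay more than 1 log2 unit above their median at 416 genes, against 48 to 111 genes for each of the others, and it was the highest of the group at 28.8% of genes. Elastin (Eln), the core protein of elastic fibres, measured 35.7, 40.2, 32.8, 43.8 and 1961 CPM in isoproterenol replicates 1 to 5 and 149, 27.3, 76.2, 42.7 and 68.4 CPM in the vehicle libraries. Cnn1, which encodes the smooth muscle protein calponin, measured 6.93, 4.76, 3.38, 6.53 and 75.3 CPM in the isoproterenol libraries, and Actg2, the enteric smooth muscle actin, 1.2, 1.52, 1.04, 1.53 and 21.1 CPM. For both genes replicate 5 lay far above every other library of either KO group. Itga8, an integrin subunit, also lay far above the rest, at 235 CPM against 11.6 to 41.3 CPM in the other 9 libraries. The retinoic acid hydroxylase gene Cyp26b1 ranged from 2.33 to 129.5 CPM within the isoproterenol group and from 2.31 to 133 CPM within the vehicle group, so that its spread was not a property of replicate 5 alone.

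Summed over marker lists, the same library was high for elastic artery and valve markers (2335 CPM against 291 to 322 in the other 4), activated fibroblast markers (1515 against 391 to 516), smooth muscle markers (3587 against 2693 to 2742), erythroid and platelet markers (669 against 331 to 432) and endocardial markers (335 against 249 to 267). Of the 2335 CPM for elastic artery and valve, Eln alone gave 1961 CPM. Replicate 5 had the highest value of its group at 10 of the 15 tested members of that list. The smooth muscle list shares Pln with the cardiomyocyte list and Des with the sarcomere list below. Acta2 is also an activated fibroblast marker, so that the smooth muscle sum is not of that cell type alone. The cardiomyocyte sum of replicate 5 was the lowest, at 54237 CPM against 65014 to 69667 CPM, and all 14 of these markers had their lowest value of the group there. The vehicle libraries lay at 72534 to 76181 CPM for cardiomyocyte markers, above all 5 isoproterenol libraries. In RNA of whole tissue, a change in the number of cells of a type and a change in RNA per cell cannot be told apart. For the lists of genes and markers, counts of calls are given below with and without replicate 5 where they differ.

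**Figure D1:**
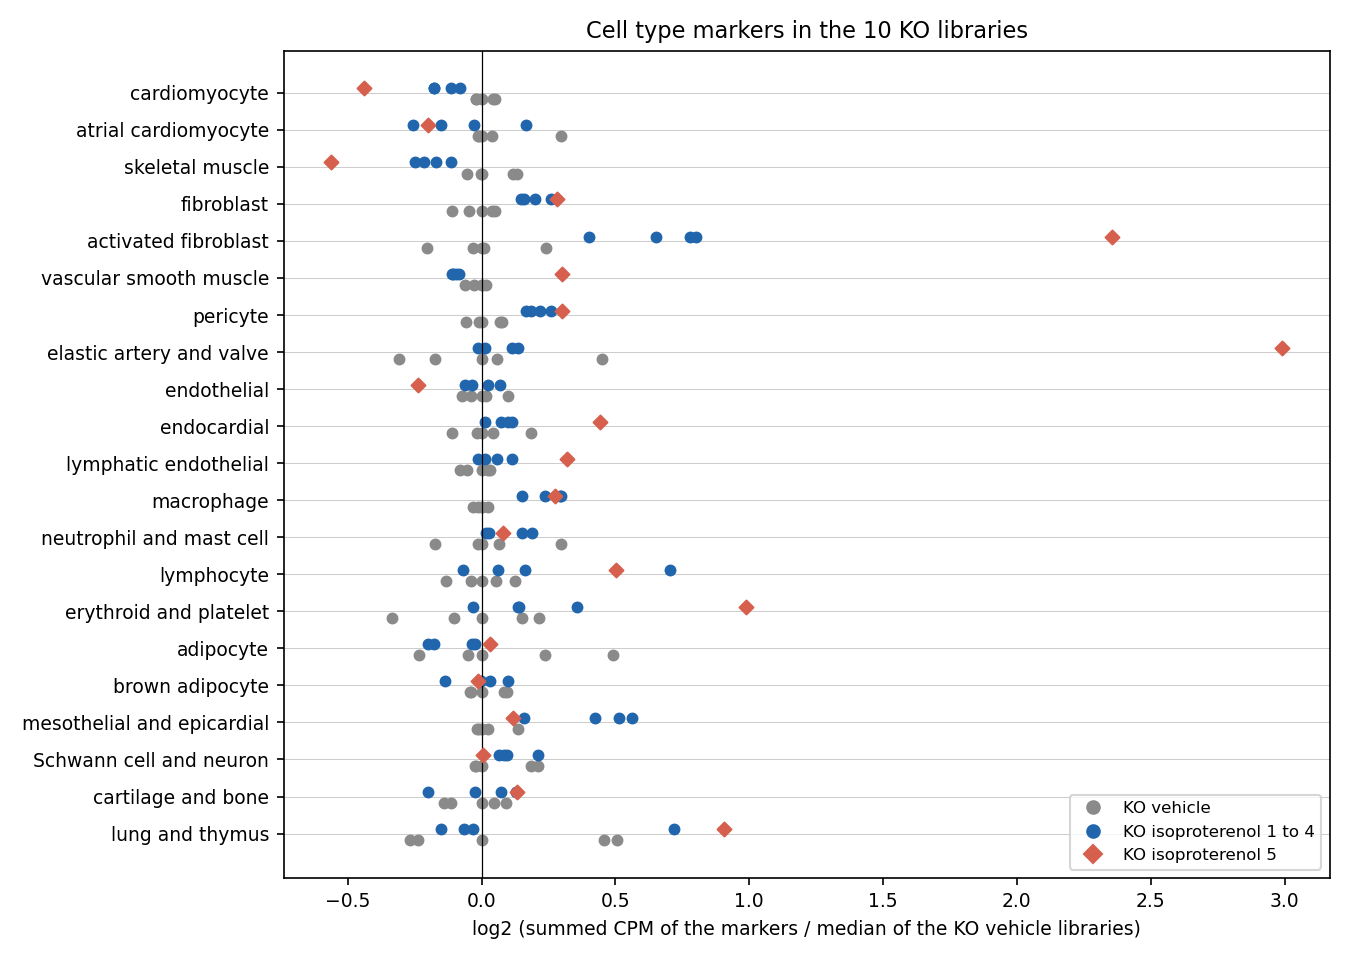
Summed CPM of 21 lists of cell type markers in the 10 KO libraries, as the log2 ratio to the median of the KO vehicle libraries (horizontal axis), with grey points for vehicle, blue points for isoproterenol replicates 1 to 4 and a red diamond for isoproterenol replicate 5. Replicate 5 lies to the right of all other libraries for elastic artery and valve, activated fibroblast and smooth muscle markers, and to the left of them for cardiomyocyte markers.

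Isoproterenol changed 1344 of the 14878 tested genes in KO hearts, 9.03% of them (quasi-likelihood test in edgeR, with an adjusted p after Benjamini-Hochberg of under 0.05, as throughout). Of these, 706 rose (4.75%) and 638 fell (4.29%), and 52.5% of the calls were therefore rises. When libraries were scaled by total counts instead, 684 rose and 281 fell, a share of 70.9% rises. Most changes were small. The median absolute log2 fold change was 0.49 among the genes that rose and 0.35 among those that fell, and 80 and 36 of them changed more than 2-fold. The 5 isoproterenol libraries lay entirely above or below the 5 vehicle libraries at 1199 genes (8.06%), among them 436 of the 706 that rose and 453 of the 638 that fell.

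Without replicate 5, 612 of 15017 genes rose (4.08%) and 522 fell (3.48%), 7.55% in all. Of the calls with all libraries, 514 of 706 rises and 446 of 638 falls were also called without it. Replicate 5 had the highest value of its group at 144 of the 192 genes whose rise was called only with it, and the lowest at 125 of the 192 such falls. Over all tested genes it was the highest at 28.8% and the lowest at 25.2%. The genes were chosen because their call needed replicate 5, so that these counts are no separate evidence about that library. Col5a1, a fibrillar collagen gene, was one of the rises called only with replicate 5. It measured 46, 34, 34.1, 31.3 and 52 CPM with vehicle and 57.4, 76.7, 48, 57.4 and 157 CPM with isoproterenol, and its log2 fold change was 1.00 (adjusted p = 0.036) with replicate 5 and 0.60 (adjusted p = 0.0901) without it. The call was also lost without KO isoproterenol replicate 2 (adjusted p = 0.0607) and without KO vehicle replicate 2, 3 or 4 (adjusted p = 0.0823 to 0.0895). The parts played by smooth muscle, arterial or valve tissue and by the lower myocyte signal in these counts were not tested.

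**Figure D2:**
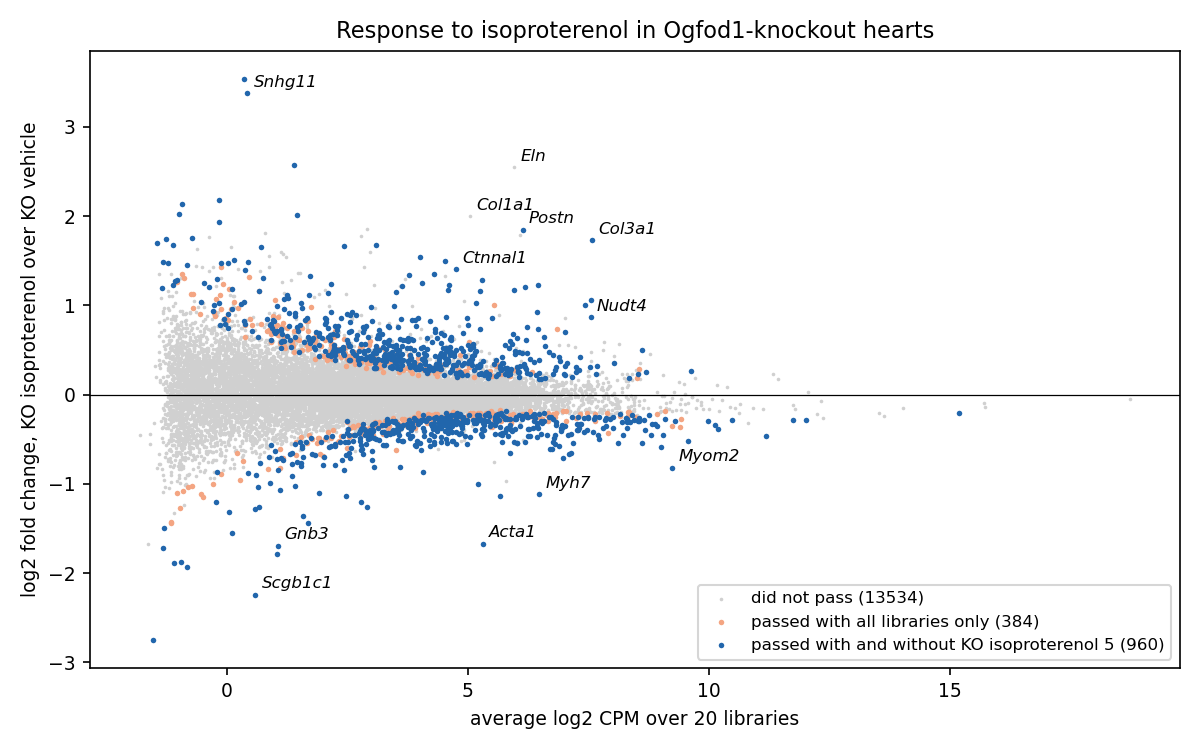
Log2 fold change of isoproterenol over vehicle in KO (vertical axis) against the average log2 CPM over the 20 libraries (horizontal axis), with 1 point per tested gene. Blue points are the 514 rises and 446 falls called with and without KO isoproterenol replicate 5, orange points the 192 rises and 192 falls called only with all libraries, and grey points did not pass, among them Eln and Col1a1 at high positive values.

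The genes with the smallest p among rises were Ctnnal1, Nudt4 and Cenpf. Ctnnal1, which encodes the alpha-catenin-like protein alpha-catulin, measured 17.1, 16.7, 13.9, 17.8 and 13.8 CPM in the vehicle libraries and 35.3, 39.1, 48.9, 42.9 and 43.6 CPM in the isoproterenol libraries. The groups were far apart, and the log2 fold change was 1.41 (SE 0.09, adjusted p = 1.13e-11). Nudt4, a hydrolase of diphosphoinositol polyphosphates, measured 142, 138, 134, 129 and 132 CPM with vehicle and 255, 230.4, 245, 256 and 244 CPM with isoproterenol (0.87, SE 0.06, adjusted p = 2.12e-11). Cenpf, a centromere protein that also binds microtubules, measured 22.1, 18.9, 19, 18.6 and 21.1 CPM with vehicle and 45.7, 54.4, 53.6, 45 and 45.3 CPM with isoproterenol (1.29, SE 0.09, adjusted p = 5.43e-10). For these genes the groups did not overlap and replicate 5 lay within the range of the other treated libraries. Without it the log2 fold changes were 1.40, 0.87 and 1.32.

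The next rises by p were those of Fbln2, a fibulin of the matrix (0.74), Mtus2, a microtubule-associated protein (0.70), Pi16, a marker of a fibroblast subset (0.86), Mmp2, a gelatinase (0.86), Phkg1, the catalytic subunit of phosphorylase kinase in muscle (0.82), the secreted matrix protein gene Ccdc80 (0.54) and Sulf2, an endosulfatase of heparan sulfate (0.60). Their adjusted p lay between 5.4e-09 and 6.84e-07. Mtus2 measured 90, 93, 88.1, 103 and 106 CPM with vehicle and 149, 148, 163, 159.5 and 161 CPM with isoproterenol. Fbln2 measured 70.1, 74.9, 67.4, 71.9 and 67.6 CPM with vehicle and 122, 122, 112, 113 and 118 CPM with isoproterenol. For both genes the groups were tight and apart, with replicate 5 inside the range of the treated libraries.

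Among genes called with and without replicate 5, with a mean level of at least 0 log2 CPM and a named symbol, the largest rise was seen for Snhg11, which hosts small nucleolar RNAs, from 0.5, 0.415, 0.256, 0.417 and 0.552 CPM in the vehicle libraries to 6.68, 5.52, 4.36, 3.98 and 2.99 CPM in the isoproterenol libraries (3.37, SE 0.35, adjusted p = 1.28e-06). Other large rises were those of Ltbp2, a latent TGF-beta binding protein of elastic fibres (1.68), Adam8, a metalloprotease (1.65), the serine protease inhibitor gene Serpina3n (1.54), Clec4n, a lectin receptor of myeloid cells (1.51), Olfml2b, a secreted olfactomedin (1.5), the cartilage proteoglycan aggrecan gene Acan (1.49) and Anxa8, an annexin (1.47). Without replicate 5 the log2 fold changes of these 7 genes ranged from 0.997 for Acan to 1.82 for Adam8. Acan lost its call in a fit of the KO libraries alone (adjusted p = 0.0593). Tnc, which encodes the matricellular protein tenascin C, had a log2 fold change of 1.67 (adjusted p = 0.0251), and of 0.88 (adjusted p = 0.038) without replicate 5. It lost its call without KO vehicle replicate 2 (adjusted p = 0.0686), 4 (adjusted p = 0.0566) or 5 (adjusted p = 0.0543).

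Among falls, the smallest p belonged to Fgf1, Scgb1c1 and Myom2. Fgf1, a fibroblast growth factor, measured 135, 150.1, 176, 149.6 and 139.7 CPM with vehicle and 93.7, 90.5, 93.8, 97.5 and 83.6 CPM with isoproterenol (−0.71, SE 0.07, adjusted p = 1.73e-08). The groups did not overlap. Scgb1c1, a secretoglobin, ranged from 2.5 to 3.57 CPM with vehicle and from 0.398 to 0.8 CPM with isoproterenol (−2.24, SE 0.22, adjusted p = 6.42e-08), the largest fall among the genes named by rule. Myom2, which encodes the M-band protein myomesin 2, measured 830.0, 803, 801, 812 and 678 CPM with vehicle and 461, 459.5, 541, 418 and 347 CPM with isoproterenol (−0.82, adjusted p = 6.42e-08). Its lowest treated value was that of replicate 5, and without that library the log2 fold change was −0.74.

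Hadh, a dehydrogenase of fatty acid oxidation, ranged from 160.2 to 180.5 CPM with vehicle and from 101 to 114 CPM with isoproterenol (−0.65, adjusted p = 9.88e-08). Ogdhl, which resembles the E1 subunit of 2-oxoglutarate dehydrogenase (−0.997), the mitochondrial ATPase gene Vwa8 (−0.57), the mitochondrial carrier gene Slc25a34 (−0.65) and Ifngr2, a chain of the interferon gamma receptor (−0.55), followed. The larger falls included Colq, the collagen tail of acetylcholinesterase (−1.78), Gnb3, a G protein beta subunit (−1.69), Edn3, an endothelin (−1.55), the secreted Wnt antagonist gene Sfrp5 (−1.36), Nmrk2, a nicotinamide riboside kinase of muscle (−1.32), Lgi1 (−1.28), the integrin gene Itgb6 (−1.26) and Mylk4 (−1.14), a kinase of myosin light chains. These genes too were taken from those called with and without replicate 5.

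Acta1, the skeletal alpha actin that the fetal heart also expresses, fell from 125, 68.5, 80.6, 93.3 and 104 CPM in the vehicle libraries to 34.2, 31.7, 27.7, 29.2 and 25.5 CPM in the isoproterenol libraries (−1.67, SE 0.22, adjusted p = 0.000107). No treated library came near the lowest vehicle library. Postn, which encodes the matricellular protein periostin of activated fibroblasts, measured 53.6, 35.5, 49.5, 44.6 and 46 CPM with vehicle and 109, 116, 84.8, 127 and 386 CPM with isoproterenol. Replicate 5 was far above the rest, and the groups did not overlap. The log2 fold change of Postn was 1.85 (SE 0.34, adjusted p = 0.00236) with replicate 5 and 1.26 (adjusted p = 0.000211) without it.

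**Figure D3:**
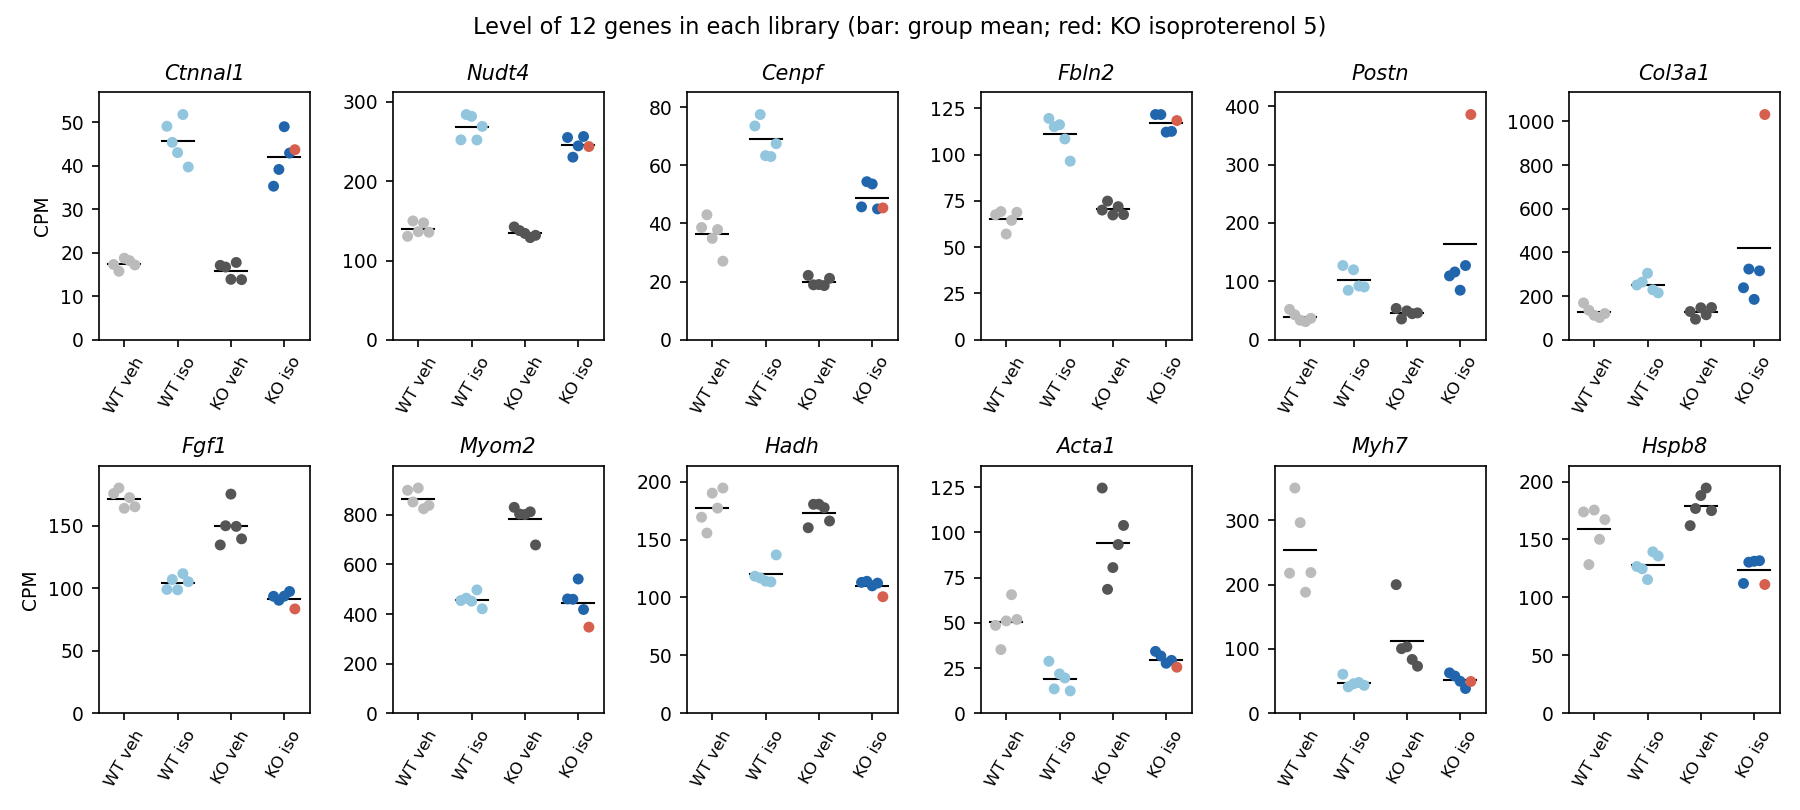
CPM of 12 genes in each of the 20 libraries (vertical axis, starting at 0, scaled per gene), by group, with a bar at the group mean and KO isoproterenol replicate 5 in red. Ctnnal1, Nudt4, Cenpf and Fbln2 rise and Fgf1, Hadh, Acta1 and Hspb8 fall without overlap between the KO groups, while replicate 5 lies far above its group for Postn and Col3a1.

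The 100 bases before the RefSeq gene starts of Postn, which rose, and of Acta1 and Nmrk2, which fell, are shown because each holds the letters TATAAA, the core of a TATA box. The match begins at position −26 from the gene start in Postn, −7 in Acta1 and −46 in Nmrk2. The build is GRCm38.p6, sequences run 5′ to 3′ on the gene's strand, and the capitals mark the match to TATAAA.
Postn, chr3:54361007-54361106, + strand: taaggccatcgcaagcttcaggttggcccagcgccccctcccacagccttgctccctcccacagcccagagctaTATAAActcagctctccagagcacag
Acta1, chr8:123894776-123894875, - strand: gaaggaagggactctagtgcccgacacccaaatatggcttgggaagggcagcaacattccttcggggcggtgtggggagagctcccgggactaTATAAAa
Nmrk2, chr10:81202038-81202137, - strand: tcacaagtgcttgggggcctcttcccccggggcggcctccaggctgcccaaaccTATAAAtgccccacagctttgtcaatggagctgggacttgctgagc
Windows from 250 bases before to 50 bases after the start were available for 542 of the 706 genes that rose, 479 of the 638 that fell and 10424 of all tested genes. TATAAA on either strand stood in 11.4%, 9.19% and 9.16% of them, and the CCAAT box (CCAAT) in 39.7%, 43.8% and 42.5%. The cAMP response element (TGACGTCA) stood in 3.51%, 2.51% and 3.42%, and the estrogen-related receptor element (TCAAGGTCA) in 0%, 0.418% and 0.336%. The shorter core of the cAMP response element, TGACG, which every full element also contains, stood in 26.2% of windows of genes that rose, 36.1% of those that fell and 34.7% of all tested genes. Over all 27025 genes with a window these shares were 15.7% for TATAAA, 41.1% for CCAAT, 2.03% for TGACGTCA, 0.466% for TCAAGGTCA and 23% for TGACG. These are descriptions of letters in a window and were not tested.

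Genes of the extracellular matrix formed the largest group of rises among the lists examined. The matrix glycoproteins and proteoglycans, which include fibulins, thrombospondins and small leucine-rich proteoglycans, had 35 of 60 tested members higher and none lower, with a median log2 fold change of 0.53 against 0.01 over all tested genes. Examples were the elastic microfibril protein gene Emilin2 (1.03), the thrombospondins Thbs2 (0.64) and Thbs3 (0.90), and Aspn, the proteoglycan asporin (0.87). Without replicate 5, 27 members were higher and the median was 0.31. The count was 24 without KO vehicle replicate 2 and 29 with total count scaling. Replicate 5 had the highest value of its group at 43 of the 60 genes.

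Of 25 tested collagen genes, 9 rose and none fell, with a median of 0.61. Col8a1 (0.73), a network-forming collagen, Col12a1 (0.89) and Col14a1 (1.17), which associate with fibrils, and Col16a1 (0.92) also rose without replicate 5, when 8 collagens were higher and the median was 0.32. In a fit of the KO libraries alone 3 collagens were higher. Col14a1 lost its call there (adjusted p = 0.0575). The main fibrillar collagens varied more. Col3a1 measured 129, 94.2, 146, 114 and 148 CPM with vehicle and 238, 324, 185, 316 and 1031 CPM with isoproterenol. All treated libraries lay above all vehicle libraries, and the log2 fold change was 1.73 (SE 0.36, adjusted p = 0.00632). Without replicate 5 it was 1.07 (adjusted p = 0.00196), and in a fit of the KO libraries alone the call was lost (adjusted p = 0.0726). Col1a1 measured 45.6, 13.2, 23.9, 19.4 and 34.8 CPM with vehicle and 37.1, 56.4, 26, 48 and 379 CPM with isoproterenol, groups that overlapped. Its log2 fold change of 2.00 (SE 0.65) did not pass (adjusted p = 0.0664), and without replicate 5 it was 0.61 (adjusted p = 0.412).

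Among enzymes that modify or crosslink collagen, 7 of 28 were higher and 1 lower (7 and 2 without replicate 5). The lysyl oxidase-like genes Loxl2 (0.63) and Loxl3 (0.81), the procollagen C-proteinase gene Bmp1 (0.50) and its enhancer Pcolce (0.41) rose. Matrix proteases and their inhibitors had 14 of 42 higher and 2 lower (13 and 3 without replicate 5). The inhibitor Timp1 rose by 1.24 (adjusted p = 0.000124) and Timp2 by 0.56, beside the protease Mmp2 and Serping1, the C1 inhibitor (0.49). Mmp2 ranged from 33.5 to 37.3 CPM with vehicle and from 50.8 to 79.3 CPM with isoproterenol, with no overlap and with its highest value in replicate 5.

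The TGF-beta, CCN and latent binding protein list, which holds ligands, receptors and targets of the main fibrotic growth factor, had 11 of 36 higher and none lower (12 without replicate 5). Both receptor genes rose, Tgfbr1 by 0.47 and Tgfbr2 by 0.35, as did the matricellular genes Ccn2 (1.06, adjusted p = 0.00201), a classic TGF-beta target, and Ccn5 (1.12). Secreted Wnt modulators had 6 of 17 higher and 1 lower (4 and 1 without replicate 5). The frizzled-related proteins Sfrp1 (0.84) and Frzb (0.90) rose and Sfrp5 fell by 1.36 on the log2 scale. Sfrp2 measured 3.58, 1.32, 1.34, 1.48 and 2.24 CPM with vehicle and 4.44, 5.52, 3.06, 5.22 and 22 CPM with isoproterenol, with overlap between the groups and the highest value again in replicate 5. It rose by 2.02 (adjusted p = 0.0162), by 1.16 (adjusted p = 0.0211) without that library, and its call was lost in a fit of the KO libraries alone (adjusted p = 0.104). Integrins had 4 of 25 higher and 2 lower, 3 of each without replicate 5, and 2 higher without KO vehicle replicate 2, 3 or 4. With all libraries these were 16% and 8% of the list, against 4.75% and 4.29% of all tested genes. The collagen receptor subunit Itga2 (1.01) rose.

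Cell-type markers were counted in the same way. Fibroblast markers rose in 5 of 14 and fell in none, among them Pi16 and Lum, the proteoglycan lumican (0.64). Their summed level was 1333 to 1490 CPM with vehicle and 1595 to 1750 CPM with isoproterenol, without overlap and with replicate 5 at 1750 CPM. Activated fibroblast markers rose in 7 of 11 (6 without replicate 5, and 5 without KO vehicle replicate 2 or 4). Their median of 1.23 was 0.74 without replicate 5. They included Cilp (1.35), a cartilage intermediate layer protein, fibronectin (Fn1, 1.23), Thbs4 (0.72) and Postn. The vascular smooth muscle markers gave none higher and 1 lower of 15, 6.67% called against 9.03% of all tested genes. They include Pln, Des and Acta2, which are also in the cardiomyocyte, sarcomere and activated fibroblast lists, so that these calls are not of smooth muscle alone. The median of the smooth muscle list was 0.48 with replicate 5 and −0.10 without it. Pericyte markers rose in 4 of 10, with the collectin gene Colec11 (0.40) among them, in 3 without replicate 5 and in 2 without KO vehicle replicate 2. Elastic artery and valve markers rose in 5 of 15, and in 3 without KO isoproterenol replicate 2, 4 or 5, without KO vehicle replicate 2, 3 or 4, or with total count scaling. None of them fell, and 1 did without replicate 5.

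Macrophage markers gave 6 of 18 higher and 1 lower, with the same counts without replicate 5. Lgals3, galectin-3 (0.86), the mannose receptor gene Mrc1 (0.44), Gpnmb (0.69) and Clec4n rose, and Folr2 (−0.49), a folate receptor of resident macrophages, fell. The summed level ranged from 237 to 246 CPM with vehicle and from 269 to 297 CPM with isoproterenol. Endothelial markers gave 2 of 16 lower, the water channel gene Aqp1 (−0.45) and the VEGF receptor gene Kdr (−0.31), and none higher, or 1 higher without replicate 5. With all libraries 12.5% of this list was called, against 9.03% of all tested genes. Cardiomyocyte markers fell in 6 of 14 and rose in none (5 lower and 1 higher without replicate 5), including Mb, myoglobin (−0.28). Of 9 tested Schwann cell and neuron markers, 2 were lower and none higher (2 lower and 1 higher without replicate 5). The lower count was 1 without KO isoproterenol replicate 1, 2 or 3 or KO vehicle replicate 1, 3 or 5. It was also 1 with total count scaling. Dbh in this list, the noradrenaline-synthesising enzyme of sympathetic nerves, fell by 0.76 on the log2 scale (adjusted p = 0.00457). Cartilage and bone markers gave 4 of 8 higher and 2 lower (3 higher and none lower without replicate 5). The lower count was also 0 without KO isoproterenol replicate 1, without KO vehicle replicate 1, 2, 3 or 4, or with total count scaling. With DESeq2 or limma-voom it was 1. The higher count was 2 without KO isoproterenol replicate 2. Spp1 in this list, osteopontin, rose by 1.48 (adjusted p = 0.000823).

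**Figure D4:**
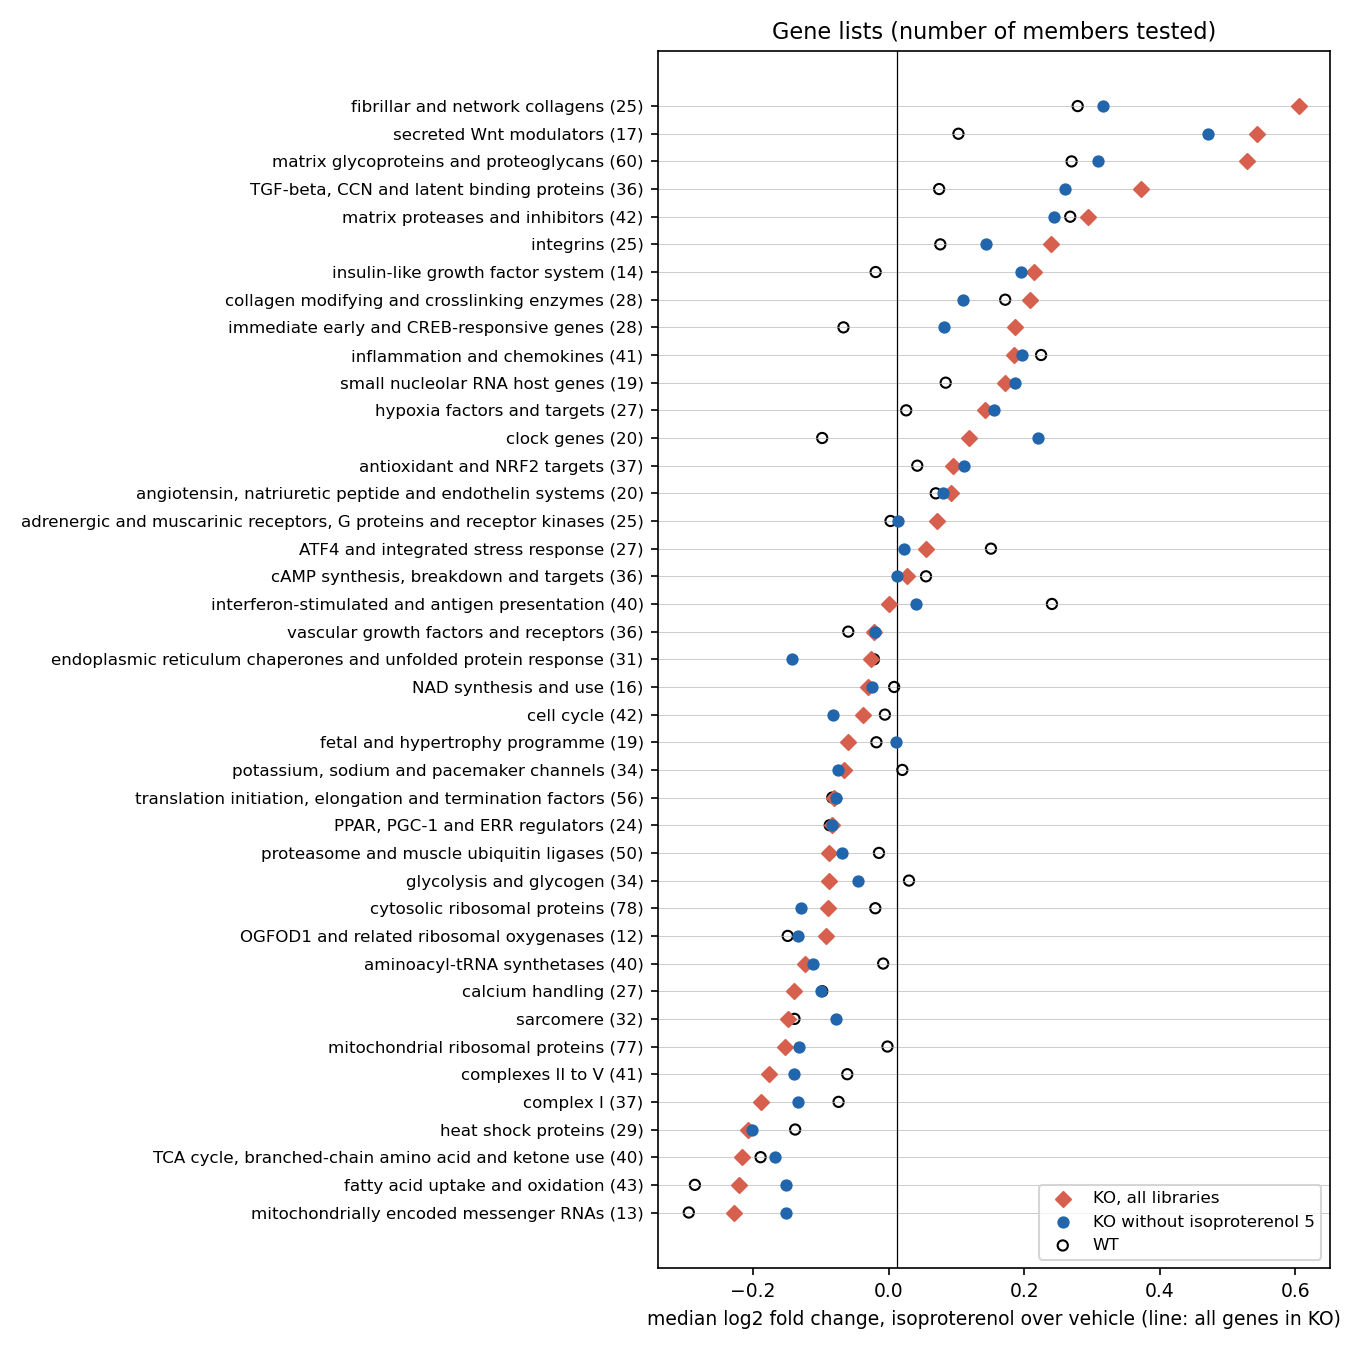
Median log2 fold change of isoproterenol over vehicle for 41 gene lists (horizontal axis; list names with the number of tested members), in KO with all libraries (red diamonds), in KO without isoproterenol replicate 5 (blue points) and in WT (open circles), with a vertical line at the KO median of all genes, 0.01. The collagens, the secreted Wnt modulators and the matrix glycoproteins have the highest KO medians among the gene groups (0.61, 0.54 and 0.53) and move to the left without replicate 5, and the fatty acid, TCA cycle and heat shock lists have medians between −0.22 and −0.21 in KO.

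In the sarcomere list 12 of 32 were lower and 1 higher (11 and 1 without replicate 5), with a median of −0.15. The ventricular myosin light chains Myl2 (−0.47) and Myl3 (−0.53), the Z-disc protein gene Myoz2 (−0.59), Myom2 and Mylk4 fell. Replicate 5 had the lowest value of its group at 28 of the 32 genes. Atrial markers fell in 5 of 11 with and without replicate 5, and in 3 with total count scaling. They were the atrial light chains Myl7 (−0.61) and Myl4 (−0.37), Mybphl (−0.52), a myosin-binding protein of the atrium, Sln, sarcolipin (−0.53), and Stard10 (−0.55). Their summed level was 1059 to 1315 CPM with vehicle and 897 to 1200 CPM with isoproterenol, and the highest of these came from KO vehicle replicate 1.

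The fetal and hypertrophy programme moved in both directions, with 2 of 19 higher and 5 lower, 4 lower without replicate 5 and 3 with total count scaling. The LIM protein gene Fhl1 (0.93, adjusted p = 1.09e-06) and the deubiquitinase gene Uchl1 (0.62) rose. Acta1, Nmrk2, Myl4 and the slow myosin heavy chain gene Myh7 were among the falls. Myh7 measured 200.1, 100.5, 103, 83.7 and 73.2 CPM with vehicle and 62.9, 58, 49.8, 38.5 and 49.4 CPM with isoproterenol. The groups did not overlap, and KO vehicle replicate 1 lay far above the other 4 vehicle libraries. The log2 fold change was −1.12 (SE 0.25, adjusted p = 0.0093), and −0.80 without that library (adjusted p = 0.0133). In a fit of the KO libraries alone the call was lost (adjusted p = 0.0556). The natriuretic peptide genes Nppa (−0.12, adjusted p = 0.471) and Nppb (−0.29, adjusted p = 0.466), the usual markers of hypertrophy, were not called, nor was the fast myosin gene Myh6 (−0.21, adjusted p = 0.138). Myh6 was called once 2 surrogate variables were added (adjusted p = 0.00125). Myh6 and Myh7 are closely similar paralogs, and the counting of reads shared between them is not given in the sources used here.

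Calcium handling genes fell in 6 of 27 and rose in 1 (6 and 2 without replicate 5), among them the calcium channel subunit gene Cacna2d1 (−0.32), Hrc (−0.45), a calcium-binding protein of the sarcoplasmic reticulum, and S100a1 (−0.38). Potassium, sodium and pacemaker channels gave 4 of 34 higher and 6 lower. The lower count was not stable: it was 1 without replicate 5 or with total count scaling, 2 without KO isoproterenol replicate 4 or KO vehicle replicate 4, and 3 without KO isoproterenol replicate 1 or 2 or KO vehicle replicate 2 or 5. The higher count was 2 without KO isoproterenol replicate 2, 3 or 4 or KO vehicle replicate 4. The potassium channel gene Kcnq1 (0.33) kept its rise with each KO library left out in turn.

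The pathway that isoproterenol acts on was counted as 3 lists. Of 25 receptors, G proteins and receptor kinases, 4 rose (3 without replicate 5) and 2 fell, 24% of the list against 9.03% of all tested genes, and 1 fell without KO isoproterenol replicate 1, 2 or 3 or KO vehicle replicate 2 or 3. The receptor kinase Grk5 (0.53) and the arrestin Arrb2 (0.48), both of which switch off or reroute receptor signalling, rose, and the beta subunit Gnb3 fell. Of 36 genes of cAMP synthesis, breakdown and action, 3 rose and 1 fell, 11.1% of the list, near the share over all genes. The phosphodiesterases Pde3a (0.36) and Pde8a (0.34), which degrade cAMP, rose, and Pkia, an inhibitor of protein kinase A (−0.40), fell. None of 28 immediate early and CREB-responsive genes passed in either direction in edgeR, with or without replicate 5, where 6 were higher and 1 lower at an unadjusted p under 0.05. DESeq2 called 2 higher and 1 lower, and limma-voom called none. Atf3 had a log2 fold change of 1.6 in this list (adjusted p = 0.0773).

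Genes of mitochondrial fuel oxidation were counted in a pair of lists. In the fatty acid list, 18 of 43 were lower and none higher, with a median of −0.22, and 16 were lower without replicate 5 (median −0.15). Beside Hadh they included the trifunctional protein subunit Hadhb (−0.55), the dehydrogenase Acadm (−0.45), the reductase Decr1 (−0.45) and the carnitine palmitoyltransferase Cpt2 (−0.38). Genes of the TCA cycle and of branched-chain amino acid and ketone use were lower in 18 of 40 (16 without replicate 5, with 1 higher). They included citrate synthase (Cs, −0.35), Sucla2 (−0.35), a subunit of succinyl-CoA synthetase, Acat1 (−0.50), which acts in ketone and isoleucine breakdown, and Ivd (−0.44), of leucine breakdown. Replicate 5 had the lowest value of its group at 38 of the 43 and 37 of the 40 genes.

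Counts of respiratory chain genes depended on single libraries. Complex I had 12 of 37 lower and none higher, with a median of −0.19. The count was 5 without replicate 5, 6 without KO vehicle replicate 2, 3 or 4, and 3 with total count scaling. Ndufs4 (−0.44), Ndufb5 (−0.29), Ndufa9 (−0.28) and Ndufs1 (−0.27) fell, also with each KO library left out in turn. Complexes II to V had 12 of 41 lower and none higher, among them Sdha of complex II (−0.28), Cox6c of complex IV (−0.25) and Atp5h of the ATP synthase (−0.30). There the count was 6 without replicate 5 or KO vehicle replicate 4, 7 without KO vehicle replicate 2 or 3, 3 with total count scaling and 21 with 2 surrogate variables. Of the 13 messenger RNAs made by the mitochondrial genome, 1 was lower, and none without replicate 5. That is 7.69% called against 9.03% of all tested genes. The 77 mitochondrial ribosomal proteins gave 14 lower and none higher, such as Mrps16 (−0.42) and Mrps35 (−0.34). That count was 7 without replicate 5, 9 without KO isoproterenol replicate 2 or KO vehicle replicate 3, 8 without KO vehicle replicate 4 and 4 with total count scaling. The fall in summed myocyte markers moved with these lists, and its part in them was not tested.

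Among the transcriptional regulators of these genes, 6 of 24 were lower and none higher (4 without replicate 5, 2 with total count scaling). The nuclear receptors Ppara (−0.52) and Esrrg (−0.30) and the coregulator Perm1 (−0.33) fell. Glycolysis and glycogen genes gave 3 of 34 higher and 6 lower. The phosphorylase kinase subunits Phka1 (0.63) and Phkg1 rose together, and hexokinase 2 (Hk2, −0.35) and the muscle phosphoglycerate mutase Pgam2 (−0.41) fell. Of 16 NAD genes 1, Nmrk2, passed, 6.25% of the list against 9.03% of all tested genes.

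Genes of protein folding were also among those that fell. Heat shock proteins gave 13 of 29 lower and 1 higher, with a median of −0.21. Without replicate 5 there were 10 lower, without KO vehicle replicate 3 there were 9, and with total count scaling 6. The small heat shock proteins Hspb8 (−0.54) and Hspb6 (−0.54), the mitochondrial chaperonin pair Hspd1 (−0.47) and Hspe1 (−0.34), and the cytosolic Hspa8 (−0.29) fell. Hspb8 ranged from 162 to 194 CPM with vehicle and from 111 to 132 CPM with isoproterenol, with no overlap. Chaperones of the endoplasmic reticulum gave 7 of 31 lower and 1 higher, and 10 lower without replicate 5. They included Hspa5 (−0.40), the Hsp70 chaperone BiP, its partner Hyou1 (−0.43), the lectin chaperones Calr (−0.40) and Canx (−0.38) and the secreted factor Manf (−0.44). The median of this list was −0.03 and turned to 0.04 with total count scaling.

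Genes of translation, the process to which the deleted enzyme belongs, were counted in the same way. None of 78 cytosolic ribosomal protein genes passed in edgeR, where 14 were lower at an unadjusted p under 0.05, DESeq2 called 3 lower, limma-voom called none, and without replicate 5, 2 were lower. For Rps23, which OGFOD1 hydroxylates, the log2 fold change was −0.08 (adjusted p = 0.645). Of 56 translation factors 2 were higher and 8 lower. Both higher calls were lost without replicate 5 or without KO vehicle replicate 4 or 5, and 1 was lost without KO isoproterenol replicate 2 or 4 or KO vehicle replicate 1, 2 or 3. The lower count was 6 without replicate 5, 5 without KO vehicle replicate 3 or 4 and 3 with total count scaling. The cap-binding protein Eif4e (−0.32), the poly(A)-binding protein Pabpc4 (−0.38), the reinitiation factor Denr (−0.39) and the muscle elongation factor Eef1a2 (−0.30) fell. Of 40 aminoacyl-tRNA synthetases 4 were lower (3 without replicate 5), and of 27 genes of the integrated stress response 1 was higher and 1 lower. These are 10% and 7.41% of the lists, near the 9.03% called over all tested genes. Of the genes named in these lists, Cox6c, Ndufa9, Eef1a2, Esrrg, Hspa8, Manf, Kdr, Myl4 and Sln lost their call with total count scaling (adjusted p = 0.0581 for Cox6c to 0.115 for Eef1a2).

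Antioxidant and NRF2 target genes gave 10 of 37 higher and 2 lower, with 6 higher without KO vehicle replicate 5 and 1 lower without KO vehicle replicate 4. Hmox1, heme oxygenase (0.74), Gclm (0.59), the regulatory subunit of glutathione synthesis, and the secreted enzymes Sod3 (0.52) and Gpx3 (0.32) rose, and the microsomal transferase Mgst3 (−0.54) fell. Among hypoxia genes, 3 of 27 rose, with the mitophagy gene Bnip3 (0.46) and the glucose transporter gene Slc2a1 (0.44), and 3 fell, with Vegfa (−0.48), the count of falls being 1 without KO vehicle replicate 3. Without replicate 5, 4 rose and 2 fell. With all libraries 11.1% of the hypoxia list rose and 11.1% fell, against 4.75% and 4.29% of all tested genes. Vascular growth factors and receptors gave 3 of 36 higher and 6 lower, with 2 higher without replicate 5 and 5 higher without KO vehicle replicate 1. With total count scaling 1 was higher and 3 lower, and the median of the list turned from negative to positive. Beside Vegfa, Kdr and Fgf1, the neuropilin Nrp2 (−0.44) fell.

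Edn1 and Edn3, which encode endothelins, moved in opposite directions. Edn1 rose from 1.5, 1.77, 0.895, 1.44 and 1.89 CPM in the vehicle libraries to 2.54, 3.75, 3.16, 3.18 and 3.7 CPM in the isoproterenol libraries (1.08, SE 0.18, adjusted p = 0.000238), without overlap, while Edn3 fell (−1.55). Ace, the angiotensin converting enzyme, rose by 0.35. Of 41 genes of inflammation, 7 were higher and 2 lower. The higher count was 8 without replicate 5 and 4 without KO isoproterenol replicate 4 or KO vehicle replicate 2. The lower count was 1 without KO isoproterenol replicate 3 or 4, KO vehicle replicate 4 or with total count scaling, and 0 without KO vehicle replicate 1. The rises included Socs3, the feedback inhibitor of cytokine receptors (0.93), and the leukotriene receptor Cysltr1 (0.99). Interferon-stimulated genes gave 1 of 40 higher, 2.5% of the list against 4.75% of all tested genes. Of 42 cell cycle genes 1 rose, Cenpf, which is 2.38% of the list against 4.75% of all tested genes. In the same list 2 fell, 4.76% against 4.29% of all tested genes. The fall count was 1 without replicate 5, without KO vehicle replicate 3 or with total count scaling. The imprinted host gene Meg3 (0.62) was 1 of 4 snoRNA host genes higher of 19 (3 without replicate 5).

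The same treatment was compared in WT hearts, which have their own vehicle controls, to ask whether the response depends on the genotype. In WT 1304 genes were called (8.76%). Of the 706 genes that rose in KO, 301 also rose in WT, 42.6% of the KO calls and 43.6% of the WT calls. Of the 638 that fell, 250 also fell in WT, 39.2% and 40.8%. No gene was called in opposite directions. The WT log2 fold change had the same sign for 93.6% of the KO rises and 94.7% of the KO falls, against 67% of all tested genes. Its median was 0.32 over the KO rises, where the KO median was 0.49, and −0.22 over the KO falls, where the KO median was −0.35. The genes were chosen for their response in KO, so that a smaller median in WT is no measure of a weaker response there.

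The test of the difference between the 2 responses called no gene of 14878 (0%). In edgeR 1142 genes had an unadjusted p under 0.05, limma-voom also called none, DESeq2 called 1 and edgeR without a filter on low counts called 34. On simulated counts the test recovered 33 of 100 genes with a 1.5-fold and 76 of 100 with a 2-fold difference. The simulated counts had the same spread at every gene and no library that stood apart, so recovery in the data may be lower. The smallest p belonged to Rnu12, a small nuclear RNA of the minor spliceosome, at a difference of −1.73 (adjusted p = 0.231). It measured 0.588 ± 0.0267 CPM and 1.48 ± 0.306 CPM in WT and 2.69 ± 0.936 CPM and 2.01 ± 0.364 CPM in KO. It was the gene called by DESeq2 (−1.74, adjusted p = 0.0373) and by edgeR without KO vehicle replicate 1 (−1.90, adjusted p = 0.00382). Without replicate 5, the aldehyde oxidase gene Aox1 was the only one called (0.69, adjusted p = 0.0475).

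For genes with a strong response in one genotype the values were set side by side. Myh7 had a log2 fold change of −1.12 in KO and −2.41 in WT, where it fell from 254 ± 67 CPM to 47.8 ± 7.66 CPM, and the KO groups lay at 112 ± 50.7 CPM and 51.7 ± 9.31 CPM. The difference of 1.29 (SE 0.35) had an unadjusted p of 0.00188 and an adjusted p of 0.518. Mtus2 rose by 0.70 in KO and 1.06 in WT, with an adjusted p of 0.518 for the difference. Nrp2 (−0.44 in KO, 0.03 in WT) and the kelch protein gene Klhdc8a (−0.65 and 0.13) had the same adjusted p. The atrial genes Myl7, Myl4 and Mybphl, called in KO, had WT log2 fold changes of −0.15, 0.04 and −0.04, and 0 of the 11 atrial markers were called in WT by edgeR, where 2 were higher at an unadjusted p under 0.05 and DESeq2 and limma-voom each called 1 higher. Summed atrial markers with vehicle were higher in KO, at 1059 to 1315 CPM, than in WT, at 804 to 1048 CPM. With isoproterenol the sums overlapped, at 897 to 1200 CPM in KO and 967 to 1094 CPM in WT. Complex I had 12 lower in KO, 5 in KO without replicate 5, and 0 of 37 in WT by edgeR, DESeq2 or limma-voom, with 2 lower at an unadjusted p under 0.05 in edgeR. None of the genes named in this comparison was called in edgeR's test of the difference with all libraries, except that without a filter on low counts Nrp2, Klhdc8a, Mybphl and Myl4 were called (adjusted p = 0.0155 each).

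**Figure D5:**
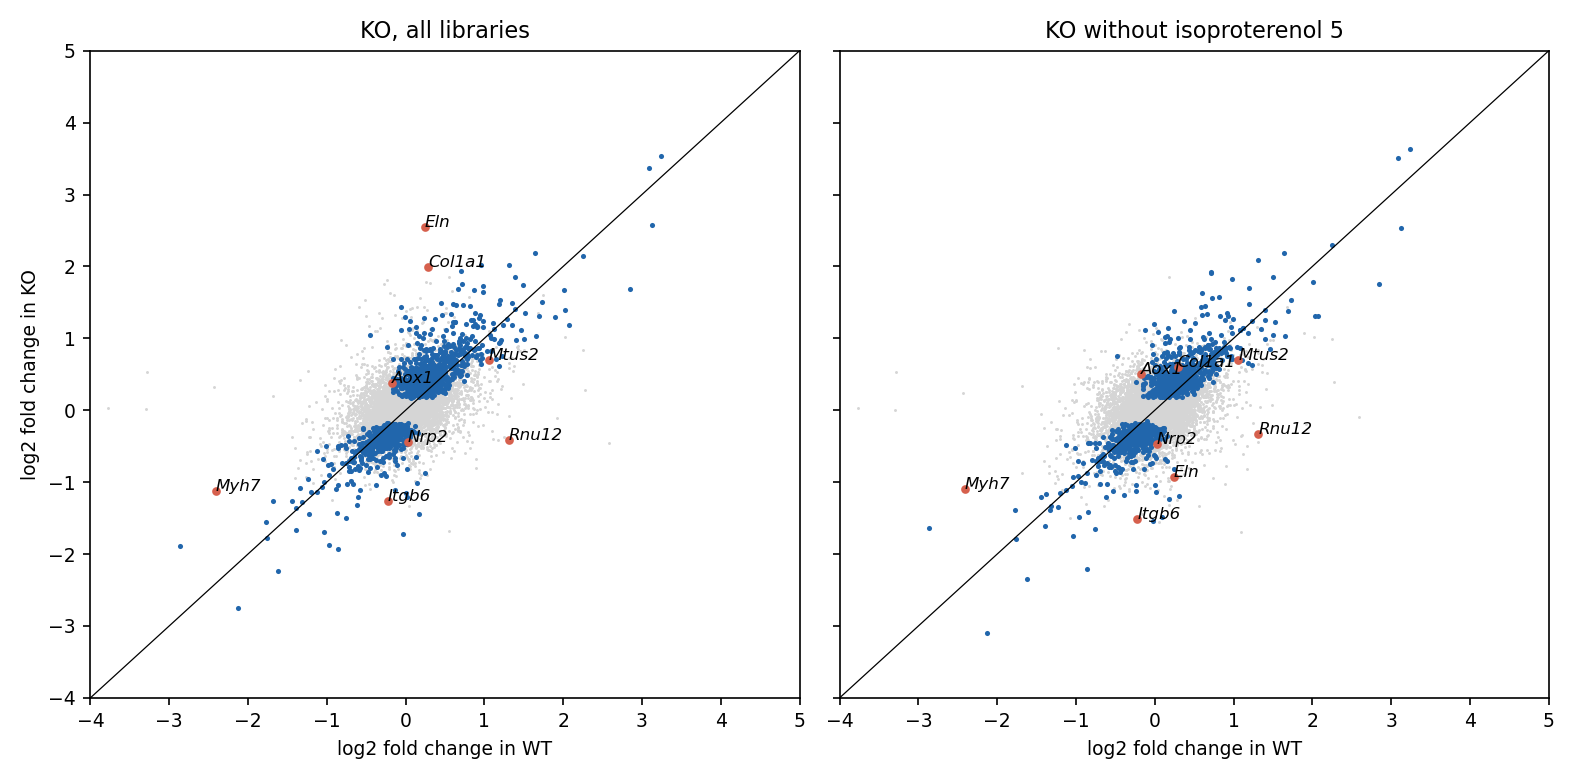
Log2 fold change of isoproterenol over vehicle in KO (vertical axes, with all libraries at left and without isoproterenol replicate 5 at right) against that in WT (horizontal axes), with 1 point per tested gene, blue where it passed in KO, and the line of equal change. Most blue points lie in the quadrants of equal sign, Eln and Col1a1 move down without replicate 5, and Myh7 lies above the line at −1.12 in KO and −2.41 in WT.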

How the data were processed

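Hearts of 4 groups of mice were measured by stranded total RNA sequencing, 5 libraries in each group. The deposited values are raw gene counts. Per the submitters' processing notes, the authors aligned reads to GRCm38 using HISAT2 2.1.0 and counted them by featureCounts 1.6.3; R 3.6.0 and limma 3.40.6 are also listed there. Strand setting, annotation release and the handling of reads shared between genes are not given in the sources used here, so that values of close paralogs, overlapping genes and antisense genes are uncertain. Each library entered as deposited, and 0 columns lacked a sample. Groups came from the labels. Replicate numbers only follow record order, so no libraries are paired.

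Of 55335 gene IDs, 55154 were found in GENCODE vM21, which gave the symbols. The analysis used edgeR 4.0.16 in R 4.3.3. The filterByExpr function kept 14878 genes, scaling was by the trimmed mean of M values, and all 20 libraries entered 1 robust quasi-likelihood fit with 16 residual degrees of freedom (biological coefficient of variation 0.119). A gene was called at an adjusted p (Benjamini-Hochberg, over all tested genes) under 0.05. The fit without KO isoproterenol replicate 5 was filtered anew and tested 15017 genes. Library pairs within a group all differed by more than sampling noise. On simulated counts the KO comparison recovered 67 of 100 genes changed 1.5-fold and 88 of 100 changed 2-fold, with 2 false calls. The simulation gave every gene the same spread and held no library that stood apart.

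The comparisons, the lists of genes and markers and the rule for named genes were chosen with earlier results of these data known. Named genes were the 12 largest rises and falls among genes called with and without replicate 5, and the 10 with the smallest p in each direction among genes called with all libraries. Both needed a mean level of at least 0 log2 CPM and a named symbol. They also were 10 fixed genes, up to 5 members per list by p, the genes with the smallest p for the difference between genotypes, the genes at which replicate 5 lay furthest from its group, and 8 called only with it. Not all of these are printed, and some are not reported here: most examples were picked, once values were known, among those whose call was kept with each KO library left out in turn. Promoter windows came from RefSeq (GRCm38.p6). Alternatives used DESeq2 1.42.0, limma 3.58.1 (voom), sva 3.50.0, other scalings and filters, and leaving out libraries. Plots used Python 3.11.15 with matplotlib 3.10.9.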

Additional observations from a re-analysis of the deposited data

Results flagged for a closer look

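In groups of 5 libraries, the highest or lowest value was checked for a gap to its neighbour of more than 0.71 of the group's range, which chance gives in about 1 in 20 groups. Among 94 such checks, 13 values stood out. The genes and lists were chosen with earlier results known, in which replicate 5 already stood apart. Some checked genes, such as Eln and Postn, also belong to checked sums. The count of 13 can therefore not be set against the chance rate.

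KO isoproterenol replicate 5 gave 9 of them, each the highest of its group. Postn measured 386 CPM there against 84.8 to 127 CPM in the other 4 libraries, Col3a1 1031 against 185 to 324 CPM, Col1a1 379 against 26 to 56.4 CPM, Sfrp2 22 against 3.05 to 5.52 CPM and Eln 1961 against 32.8 to 43.8 CPM. The summed markers of activated fibroblasts came to 1515 against 391 to 516 CPM, of smooth muscle to 3587 against 2693 to 2742 CPM, of elastic artery and valve to 2335 against 291 to 322 CPM and of the endocardium to 335 against 249 to 267 CPM.

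In the vehicle group, KO vehicle replicate 1 was high for Myh7 (200 CPM against 73.2 to 103 CPM), for the summed atrial markers (1315 against 1059 to 1100 CPM) and for the summed mesothelial and epicardial markers (222 against 199 to 205 CPM). KO vehicle replicate 5 was low for Myom2 (678 CPM against 801 to 830 CPM). Without KO vehicle replicate 1 the log2 fold change of Myh7 was −0.80 and its call was kept.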

How the results depend on the processing

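Without 1 of the 20 libraries in turn, isoproterenol changed 1001 to 1442 genes in KO, with 522 to 757 higher and 470 to 705 lower, and the difference between the genotypes gave 0 to 1 genes. Under the other settings 965 to 1871 genes were called in KO, fewest with total count scaling, where 281 were lower, and most with 2 surrogate variables. The cause of these changes was not tested. The difference between responses called 1 gene with DESeq2, 34 without a filter on low counts, and 4 without KO isoproterenol replicate 5 and WT vehicle replicate 2 together, both known from earlier results to stand apart. It called 0 with limma-voom, with quality weights, and with the other filters and scalings.

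Of 148 genes named in the report as called, 16 lost the call in at least 1 setting and none turned in direction. The losses were 10 with total count scaling, 7 in a fit of the KO libraries alone, 3 in that fit without replicate 5, 1 without a filter on low counts, 1 without both libraries that stood apart, and 2 genes (Col5a1 and Tnc) on leaving out single libraries. Most of the genes were picked for a call kept on leaving out KO libraries, so that the last count is no measure of stability. Of the 62 list medians, 13 took the other sign in at least 1 setting. In 3 of these the median lay over 0.1 from 0 with all libraries: smooth muscle (0.48, and −0.10 without replicate 5), adipocyte, and Schwann cell and neuron markers. The last was the only one whose median exceeded the SD of the list between libraries, and it lay between −0.23 and 0.02 on leaving out single libraries and was 0.0199 without KO vehicle replicate 1. Reading promoter windows on the given strand alone lowered the shares of all sets, with TATAAA at 7.93% for rises and 5.61% for all tested genes. No paired analysis was possible because replicate numbers follow record order and pair no libraries. The smallest KO library outside the mitochondrial genome held 6.36 M counts, which limits genes near 1 CPM such as Snhg11.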
